A study of Homo sapiens with 6 samples.

Results

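The genes described are 10 named members of the TGF-beta pathway, taken by symbol from the 62700 genes of the count table: the ligand genes TGFB1, TGFB2 and INHBA, the ligand antagonist FST, the receptors TGFBR1 and TGFBR2, the signal transducer SMAD3, the inhibitors SMAD7 and SKIL, and the response gene TGFBI. The samples were SAS cells, a line from a squamous cell carcinoma. In the control group the cells, labelled WT in genotype, received a control siRNA (siC), and in the knockdown group an siRNA against IGF2BP1 (siIGF2BP1), an RNA-binding protein that stabilises many transcripts. Each group had 3 libraries, and the study's question was whether IGF2BP1 keeps Hippo signalling from repressing YAP1 in carcinomas. The labels give neither the siRNA sequence nor the time of treatment. They number the replicates without naming separate cultures; the p-values therefore reflect variation among the libraries sequenced, possibly only technical variation. All 10 members passed the count filter.

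TGF-beta and activin ligands are secreted dimers that bring together a type II and a type I receptor kinase at the cell surface. The type I receptor phosphorylates SMAD proteins, SMAD3 among them, which enter the nucleus and switch on target genes, including those of their own inhibitors. In normal squamous epithelium the pathway restrains growth, and in carcinomas it is known for its part in invasion and matrix production.

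Of the 10 members, INHBA, TGFBI and SMAD3 fell after IGF2BP1 knockdown and 0 rose, by edgeR's quasi-likelihood test with Benjamini-Hochberg adjustment over all tested genes. INHBA changed most and fell by 62.8% in the fit, while TGFBI fell by 24.7% and SMAD3 by 22.8%. The other 7 were not called. Over all 14649 tested genes, 12.9% were called, 6.27% higher and 6.66% lower. The median log2 fold change of the members was -0.32, and that of all tested genes 0.03. No test of the group as a group was made. The members were chosen with earlier results of these data known, so these comparisons are not a result about the pathway.

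Library totals lay between 17918496 and 26675064 reads. The targeted gene IGF2BP1 had 8.11, 9.60 and 11.2 CPM (counts scaled to library size) in controls 1 to 3 and 1.59, 1.09 and 0.806 CPM in knockdowns 1 to 3. Over all genes 918 were called higher and 975 lower, so 48.5% of calls were higher, against 63.2% with no scaling factor. Leaving out any library lowered the 918 higher genes. They became 585, 529 and 615 without control 1, 2 or 3, and 807, 828 and 587 without knockdown 1, 2 or 3. Of 12 squamous epithelial markers all were tested and 6 were lower; their summed level was between 23675 and 25620 CPM in controls and between 13051 and 13978 CPM after knockdown, most of which came from KRT8 (control mean 8460 CPM) and KRT18 (6222 CPM), keratins of simple epithelia. The 6 that fell were the basal keratin gene KRT5 (log2 fold change -2.91), KRT6A (-2.02), the cadherin gene CDH1 (-1.60), KRT18 (-1.26), KRT8 (-0.77) and KRT14 (-0.43), while TP63, a squamous lineage factor, was at 26.4 and 26.2 CPM and not called. Of 10 fibroblast markers 4 were tested and PDGFRB, a growth factor receptor of mesenchymal cells, was called higher (0.605 and 1.73 CPM, log2 fold change 1.52, adjusted p = 0.0491, groups not overlapping). COL3A1, DCN, LUM and THY1 had 0 reads, and the sum was 12.4 to 16.3 CPM in controls and 13.6 to 20.6 CPM after knockdown. Of 6 leukocyte markers PTPRC and CD3E had 0 reads, with sums of 17.4 to 19.1 and 12.5 to 14.9 CPM, nearly all of it from CD14. Of 6 endothelial markers KDR and CLDN5 had 0 reads, with sums of 6.29 to 7.41 and 6.43 to 13.5 CPM. The part of these shifts in the members' values was not tested. In bulk RNA, fewer cells of a type and less RNA per cell cannot be told apart. Knockdown 1 stood apart in a ribosomal RNA gene, RNA5-8SN3, at 543 CPM against 21.3 to 50.7 CPM in the other libraries. RN7SL1, the RNA of the signal recognition particle, was at 33.9, 138.7 and 18.3 CPM in controls and 368, 447 and 60.1 CPM after knockdown, highest in knockdown 2, and neither gene was called (adjusted p = 0.312 and 0.360). The log2 fold changes of INHBA, TGFBI and SMAD3 were -1.49, -0.49 and -0.45 without knockdown 1 and -1.43, -0.33 and -0.36 without knockdown 2.

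The members spanned a wide range of level. On the TPM scale, which divides reads by gene length, the order in controls was TGFBI (878 ± 16.3 TPM), TGFB1 (197 ± 24.3), SMAD3 (45.6 ± 3.52), FST (37.6 ± 1.72), SMAD7 (13.2 ± 1.93), TGFBR2 (7.54 ± 2.17), INHBA (2.94 ± 0.470), TGFB2 (2.58 ± 1.00), TGFBR1 (0.429 ± 0.155) and SKIL (0.405 ± 0.163; SD, n = 3 each). With the deposited lengths, the ranges of neighbours did not overlap, except those of INHBA with TGFB2 and of TGFBR1 with SKIL. These lengths differ from the exon bases of GENCODE release 29, with 6850 against 4704 for TGFBR2 and 3946 against 5033 for SMAD7. The order of SMAD7 and TGFBR2 therefore depends on the lengths used. TGFBI had a higher TPM than 98.6% of the tested genes, TGFB1 than 94.1%, and TGFBR1 than 8.89%. The receptor pair was therefore unequal at the RNA level: within each library TGFBR2 had between 8.39 and 30.1 times the length-scaled reads of TGFBR1. The size of this ratio is imprecise, since it rests on 18 to 36 TGFBR1 reads per library and on the deposited gene lengths. TGFB1 was more abundant than TGFB2 in every library: TGFB2 stood at 0.00906 to 0.0171 of TGFB1 in controls and 0.00376 to 0.0112 after knockdown, ranges that overlapped.

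**Figure D1:**
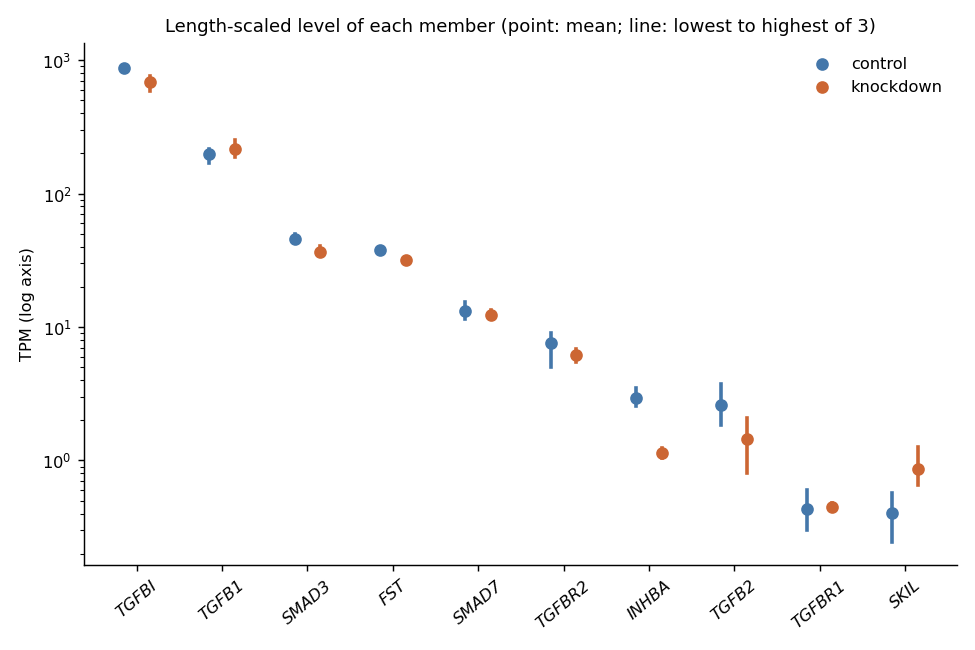
Length-scaled level of the 10 members in TPM on a log axis, ordered by control mean; points are means of 3 libraries and lines run from the lowest to the highest library, controls in blue and knockdowns in orange. Levels run from 878 TPM for TGFBI to 0.405 TPM for SKIL in controls, and the INHBA groups are set apart with no overlap.

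INHBA encodes the beta-A subunit, whose dimer is activin A (ENSG00000122641; GRCh38 chromosome 7, 41667168 to 41705834, minus strand). It stood at 6.92, 7.58 and 9.25 CPM in controls 1 to 3 and at 3.19, 2.84 and 2.802 CPM in knockdowns 1 to 3. The lowest control was above the highest knockdown, and the knockdown libraries lay close together. The values rest on 158, 176 and 241 reads in controls and 58, 65 and 73 after knockdown. The log2 fold change was -1.43 (SE 0.25, 95% interval -1.96 to -0.90, adjusted p = 0.00104), the 91st largest fall among the 975 genes called lower. In each of 13 alternative settings the call held, with values between -1.55 and -1.31. The antisense gene INHBA-AS1 shares none of its exon bases with INHBA in GENCODE release 29 and had at most 5 reads in any library.

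Promoter windows of 5 members are shown. Those of INHBA and TGFBI and, of the 5 windows of SMAD3, the pair with a searched motif are given since these members fell. Those of FST and TGFB2 are given as examples of members that were not called and hold a searched motif. TGFBR1, also not called, holds CAGACA and GGAATG in windows that are not shown. Each is the 250 bases before a RefSeq transcription start on GRCh38.p14, 5′ to 3′ on the gene's strand, with matches on either strand in capitals. The motifs searched were CAGACA and the palindrome GTCTAGAC, both bound by SMAD proteins, TGANTCA, bound by AP-1, and GGAATG, bound by TEAD factors, the DNA-binding partners of YAP1.
INHBA (chr7:41703091-41703340, minus strand): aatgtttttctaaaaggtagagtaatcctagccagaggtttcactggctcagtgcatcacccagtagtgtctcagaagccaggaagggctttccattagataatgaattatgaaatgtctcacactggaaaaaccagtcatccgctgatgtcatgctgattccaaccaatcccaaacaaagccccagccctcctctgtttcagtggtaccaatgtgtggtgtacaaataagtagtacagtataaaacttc
TGFBI (chr5:136028738-136028987, plus strand): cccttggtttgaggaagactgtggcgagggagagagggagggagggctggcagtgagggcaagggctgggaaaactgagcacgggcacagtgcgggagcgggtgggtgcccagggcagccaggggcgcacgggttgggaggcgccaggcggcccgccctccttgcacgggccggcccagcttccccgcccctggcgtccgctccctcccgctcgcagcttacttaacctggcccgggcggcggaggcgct
SMAD3 (chr15:67125492-67125741, plus strand): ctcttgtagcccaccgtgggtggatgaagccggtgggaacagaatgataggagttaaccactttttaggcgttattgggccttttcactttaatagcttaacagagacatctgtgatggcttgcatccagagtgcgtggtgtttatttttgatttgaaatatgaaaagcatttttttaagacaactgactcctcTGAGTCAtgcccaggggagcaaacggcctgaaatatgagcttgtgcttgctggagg
SMAD3 (chr15:67137771-67138020, plus strand): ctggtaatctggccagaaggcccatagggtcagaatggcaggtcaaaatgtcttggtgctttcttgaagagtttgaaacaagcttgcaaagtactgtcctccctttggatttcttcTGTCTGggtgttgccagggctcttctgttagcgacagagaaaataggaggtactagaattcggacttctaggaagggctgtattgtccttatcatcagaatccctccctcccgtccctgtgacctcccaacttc
FST (chr5:53480379-53480628, plus strand): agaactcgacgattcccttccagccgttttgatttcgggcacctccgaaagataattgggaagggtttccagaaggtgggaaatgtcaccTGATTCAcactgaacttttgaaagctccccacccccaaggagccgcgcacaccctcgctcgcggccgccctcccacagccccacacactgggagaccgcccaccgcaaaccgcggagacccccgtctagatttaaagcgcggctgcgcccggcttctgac
TGFB2 (chr1:218345086-218345335, plus strand): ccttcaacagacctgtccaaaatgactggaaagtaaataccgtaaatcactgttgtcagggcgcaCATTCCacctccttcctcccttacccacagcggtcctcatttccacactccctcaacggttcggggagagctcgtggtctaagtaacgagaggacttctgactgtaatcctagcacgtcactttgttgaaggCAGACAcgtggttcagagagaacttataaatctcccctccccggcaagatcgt
The INHBA and SMAD3 windows lie wholly, and those of FST and TGFBI partly, inside the gene spans of GENCODE release 29, whose first starts are further upstream. The INHBA and TGFBI windows held none of the 4 motifs. SMAD3 held a TGANTCA match 56 bases before one start and CAGACA, on the opposite strand, 134 bases before another, and the other 3 SMAD3 windows held none. FST held a TGANTCA match 160 bases before the start, and TGFB2 held CAGACA 53 bases and GGAATG, on the opposite strand, 185 bases before it, counted to the leftmost base of the match. TGFBR1 held CAGACA, on the opposite strand, 17 bases before one start and CAGACA 244 bases before another. It held GGAATG 132 bases before a further start. Over the 35116 RefSeq windows of this length, 13.6% held CAGACA, 0.182% GTCTAGAC, 6.57% TGANTCA and 11.9% GGAATG. The 10 members have 24 windows, since SMAD3, SMAD7, TGFBR1 and TGFBR2 have several starts. Of the 24 windows 4 held CAGACA (16.7%, in 3 members), 0 held GTCTAGAC, 2 held TGANTCA (8.33%) and 2 held GGAATG (8.33%), so the members' counts lie near the shares over all windows. A match is a description of the letters and says nothing of binding in these cells.

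Among the ligands, TGFB1 (chromosome 19, 41301587 to 41353911, minus strand) was at 217, 179.8 and 229 CPM in controls and 256, 188 and 226 CPM after knockdown. The groups overlapped, and the log2 fold change was 0.10 (95% interval -0.17 to 0.36, adjusted p = 0.682), which turned to -0.02 without control 2 and to -0.01 without knockdown 1. In GENCODE release 29, 6.64% of the exon bases of TGFB1 lie also in HNRNPUL1, transcribed from the other strand, and the counting's strand setting is not given, so reads of the pair could be mixed there. TGFB2 (chromosome 1, 218346235 to 218444619, plus strand) was at 3.64, 4.31 and 7.25 CPM in controls and 2.75, 3.89 and 1.57 CPM after knockdown. Knockdown 2 lay above control 1, so the groups overlapped. TGFB2 was not called (log2 fold change -0.89, SE 0.36, 95% interval -1.65 to -0.14, adjusted p = 0.119). Its value depended on single libraries: it was -0.55 without control 3, -0.61 without knockdown 3, and -1.28 with a call (adjusted p = 0.0341) without knockdown 2. A same-strand gene, TGFB2-OT1, shares 26.6% of the exon bases of TGFB2 and had 0 reads in all libraries. The 0 reads do not show how reads in the shared bases were counted. Such reads may be missing from TGFB2, so its level against other genes is uncertain.

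FST encodes follistatin, a secreted protein that binds and blocks activins (chromosome 5, 53480409 to 53487134, plus strand). It was at 34.6, 34.7 and 31.6 CPM in controls and 26.7, 26.6 and 28.5 CPM after knockdown. The groups did not overlap, yet the gene was not called (log2 fold change -0.30, SE 0.13, 95% interval -0.58 to -0.02, adjusted p = 0.159), also under the 13 alternatives. The ratio of INHBA to FST in reads per base of gene length, free of scaling between libraries, was 0.0665, 0.0726 and 0.0972 in controls and 0.0396, 0.0355 and 0.0326 after knockdown. Every control was above every knockdown in this ratio, which is given without a test. Groups did not overlap for 5 of the 10 members, INHBA, FST, SMAD3 and TGFBI lower and SKIL higher, and for 30.7% of all tested genes.

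**Figure D2:**
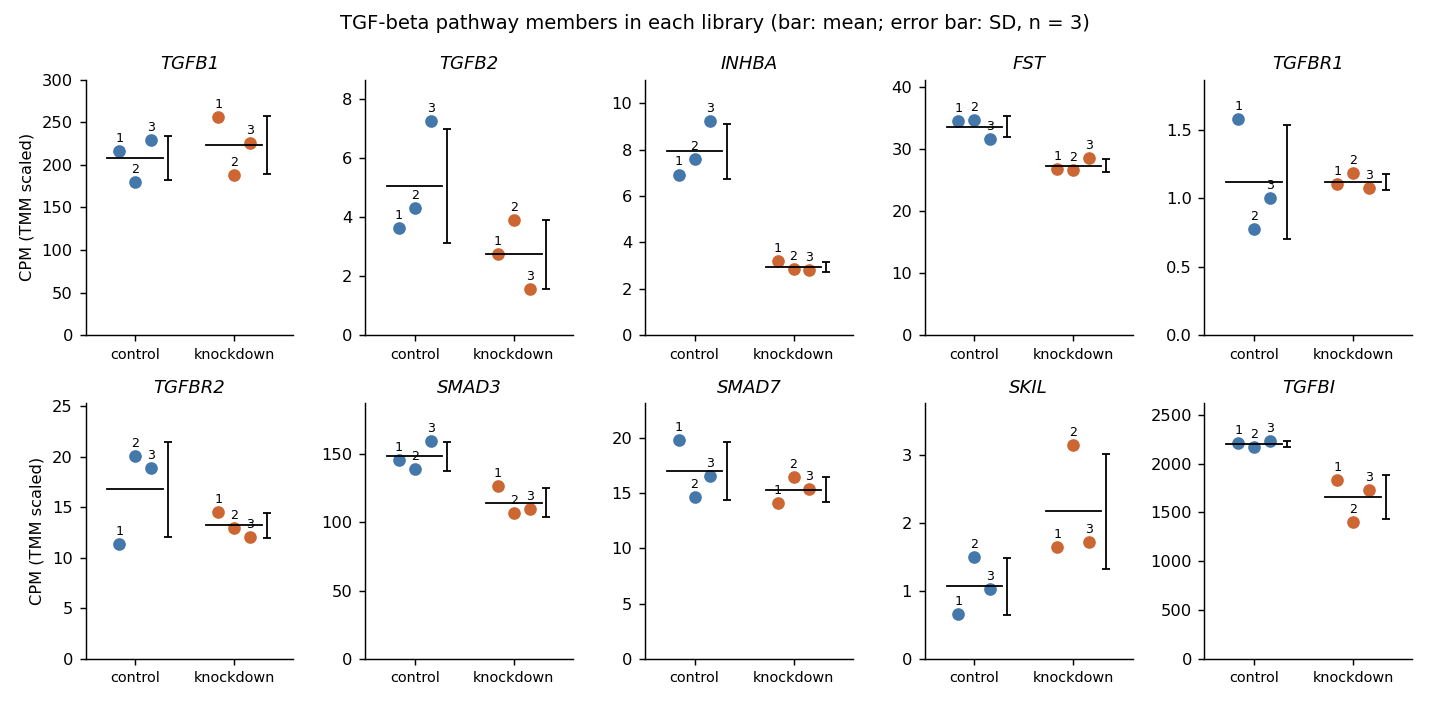
CPM of each member in every library on linear axes from 0, numbered by replicate, controls in blue and knockdowns in orange; horizontal bars are means and error bars SD (n = 3). INHBA controls lie between 6.92 and 9.25 CPM and knockdowns between 2.802 and 3.19 CPM, while the groups overlap for TGFB1, TGFB2, both receptors and SMAD7.

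The receptor transcripts were not called. TGFBR2, the type II receptor that binds the ligand (chromosome 3, 30606502 to 30694142, plus strand), was at 11.3, 20.03 and 18.9 CPM in controls and 14.6, 12.9 and 12.1 CPM after knockdown. Control 1 was below all knockdown libraries and the other controls above them. The log2 fold change was -0.35 (95% interval -0.79 to 0.09, adjusted p = 0.327), and -0.59 without control 1 or -0.21 without control 2. TGFBR1, the type I receptor kinase (chromosome 9, 99104038 to 99154192, plus strand), had 36, 18 and 26 reads in controls and 20, 27 and 28 after knockdown, or 1.117 ± 0.414 and 1.119 ± 0.0557 CPM (SD, n = 3 each). At this depth the 95% interval of the log2 fold change ran from -0.98 to 0.99 (adjusted p = 0.998), so changes within those bounds are compatible with the data.

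SMAD3, the transducer that carries the signal to DNA (ENSG00000166949; chromosome 15, 67063763 to 67195195, plus strand), was at 146, 139 and 160.0 CPM in controls and 127, 107 and 110.1 CPM after knockdown. The groups did not overlap. It fell by 0.37 on the log2 scale (SE 0.11, 95% interval -0.60 to -0.14, adjusted p = 0.0305). The call was lost without control 1 (adjusted p = 0.0515), control 3 (0.0928) or knockdown 3 (0.114) and with no scaling factor (0.0664), while the direction held in all 13 alternatives. An antisense gene shares 2.00% of its exon bases and had at most 19 reads in a library.

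Neither of the intracellular inhibitors was called. SMAD7, an inhibitory SMAD that targets the receptor (chromosome 18, 48919853 to 48952052, minus strand), was at 19.8, 14.6 and 16.5 CPM in controls and 14.1, 16.5 and 15.4 CPM after knockdown, with overlapping groups (log2 fold change -0.15, 95% interval -0.52 to 0.22, adjusted p = 0.651). SKIL, a corepressor of SMAD target genes also known as SnoN (chromosome 3, 170357678 to 170396835, plus strand), had 15, 35 and 27 reads in controls and 30, 72 and 45 after knockdown. In CPM these were 0.657, 1.51 and 1.04 against 1.65, 3.15 and 1.73, so each knockdown was above each control. SKIL was not called (log2 fold change 1.03, SE 0.44, 95% interval 0.10 to 1.96, adjusted p = 0.148), and its value was 0.64 without knockdown 2, the highest library.

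TGFBI encodes a secreted matrix protein that was named for its induction by TGF-beta (ENSG00000120708; chromosome 5, 136028895 to 136063818, plus strand). It was at 2207, 2168 and 2232 CPM in controls and 1836, 1404 and 1735 CPM after knockdown. The coefficient of variation was 1.45% in controls and 13.6% after knockdown, and the groups did not overlap. The log2 fold change was -0.41 (SE 0.11, 95% interval -0.64 to -0.18, adjusted p = 0.0200), called in all 13 alternatives with adjusted p between 3.04e-04 and 0.0457.

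**Figure D3:**
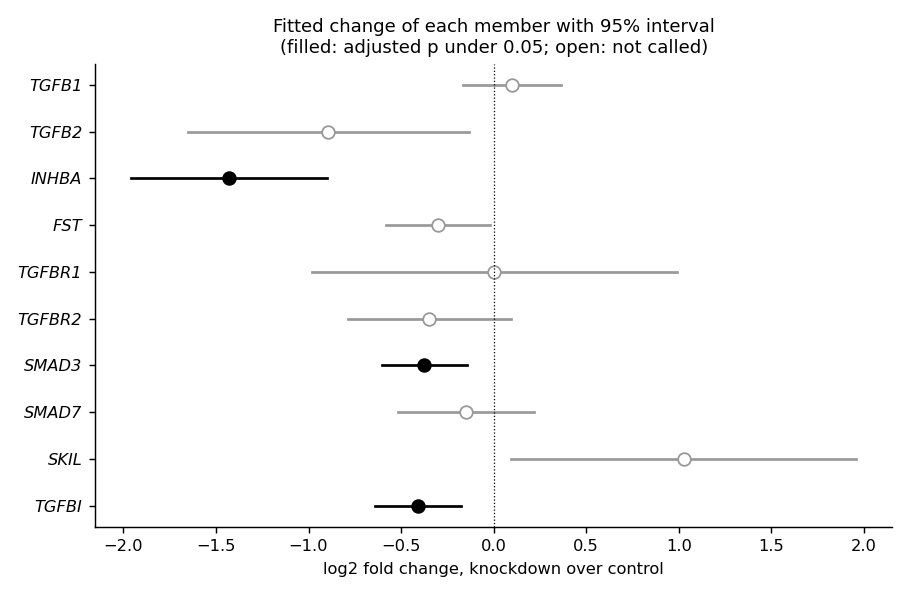
Log2 fold change of each member, knockdown over control, with its 95% interval from edgeR; filled points have an adjusted p under 0.05. INHBA (-1.43), TGFBI (-0.41) and SMAD3 (-0.37) are filled, and the intervals of TGFBR1, SKIL and TGFB2 are the widest.

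The wider pathway was read from lists that do not include the members and were chosen with earlier results of these data known. Of 89 such genes 71 were tested, 5 rose and 8 fell, or 18.3% called against 12.9% of all tested genes. Given how the lists were chosen, the difference between these shares is not a result about the pathway. Known TGF-beta responses moved both ways: of 26 tested, 4 rose and 4 fell, with a median log2 fold change of -0.08. ANGPTL4, a secreted inhibitor of lipoprotein lipase, rose from 0.843 ± 0.430 to 4.59 ± 0.475 CPM (log2 fold change 2.44, adjusted p = 4.13e-04) and the cytokine gene IL11 from 9.99 ± 0.872 to 23.7 ± 2.21 CPM (1.25, adjusted p = 1.08e-04; SD, n = 3 each).

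PMEPA1, a membrane protein that dampens SMAD signalling, fell from 35.1, 31.6 and 31.0 CPM in controls to 17.9, 12.0 and 16.4 CPM after knockdown (log2 fold change -1.08, SE 0.17, adjusted p = 3.77e-04). JUNB, an AP-1 subunit, fell from 570.0 ± 13.01 to 259 ± 29.8 CPM (-1.14, adjusted p = 2.72e-06) and COL4A1, a basement membrane collagen, from 112 ± 13.3 to 62.9 ± 8.84 CPM (-0.83, adjusted p = 3.90e-04; SD, n = 3 each). Genes transcribed from the other strand cover 14.2% of JUNB's exon bases and 6.10% of PMEPA1's. CCN2, FN1, CDKN1A and SNAI2, other widely read responses, were not called (0.19, -0.12, 0.01 and 0.35).

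Among 4 tested further ligands INHBB, the beta-B subunit of activin B, rose from 2.28, 1.64 and 1.34 CPM to 4.399, 4.07 and 2.73 CPM (log2 fold change 1.09, adjusted p = 0.0466). The call was lost with limma-voom (0.0547) and without controls 1, 2 or 3 or knockdowns 1 or 2 (adjusted p up to 0.171). The length-scaled ratio of INHBA to INHBB, chosen after both values were seen, was 1.18, 1.79 and 2.66 in controls and 0.281, 0.270 and 0.398 after knockdown. By this length-scaled measure INHBA was the more abundant of the pair in each control and INHBB in each knockdown. The order rests on deposited lengths of 8284 bases for INHBA and 3206 for INHBB, and on 35 to 93 INHBB reads per library. In knockdown 3, INHBA had 73 reads and INHBB 71.

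Of 9 tested genes of ligand latency and activation, LTBP2 rose and LTBP3 fell. LTBP2, a matrix protein of the latent TGF-beta binding family, went from 70.0 ± 3.86 to 116 ± 18.9 CPM (log2 fold change 0.73, adjusted p = 7.83e-04). LTBP3, which tethers latent TGF-beta, went from 446 ± 25.4 to 344 ± 44.1 CPM (-0.37, adjusted p = 0.0341; SD, n = 3 each), a call lost with no scaling factor (0.0586) and without control 1, control 3, knockdown 2 or knockdown 3 (0.0534 to 0.0871). None of 3 further tested antagonists, 3 further receptors or 13 SMADs and partners was called. SMAD2 and SMAD4, which act with SMAD3, had log2 fold changes of -0.10 and 0.20.

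In the related BMP branch 3 of 15 tested genes fell, 0 rose and 12 were not called, where 6.66% of all tested genes were called lower. The median log2 fold change of the list was -0.55, against 0.03 over all tested genes. This median is the value of BMP6, which had 52 reads in controls and 34 after knockdown (SE 0.69, adjusted p = 0.681). It is therefore imprecise, and the branch was not tested as a group. The list was chosen with earlier results of these data known, so its share and median are not a result about the branch. ID1 and ID3, inhibitors of helix-loop-helix factors and common BMP targets, fell from 554 ± 54.5 to 316 ± 6.67 CPM (log2 fold change -0.81, adjusted p = 6.13e-05) and from 298 ± 21.2 to 194 ± 3.82 CPM (-0.62, adjusted p = 4.77e-04; SD, n = 3 each). GDF15, counted in this list only as a distant member of the ligand family, fell by 0.64 on the log2 scale (adjusted p = 0.00262).

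**Figure D4:**
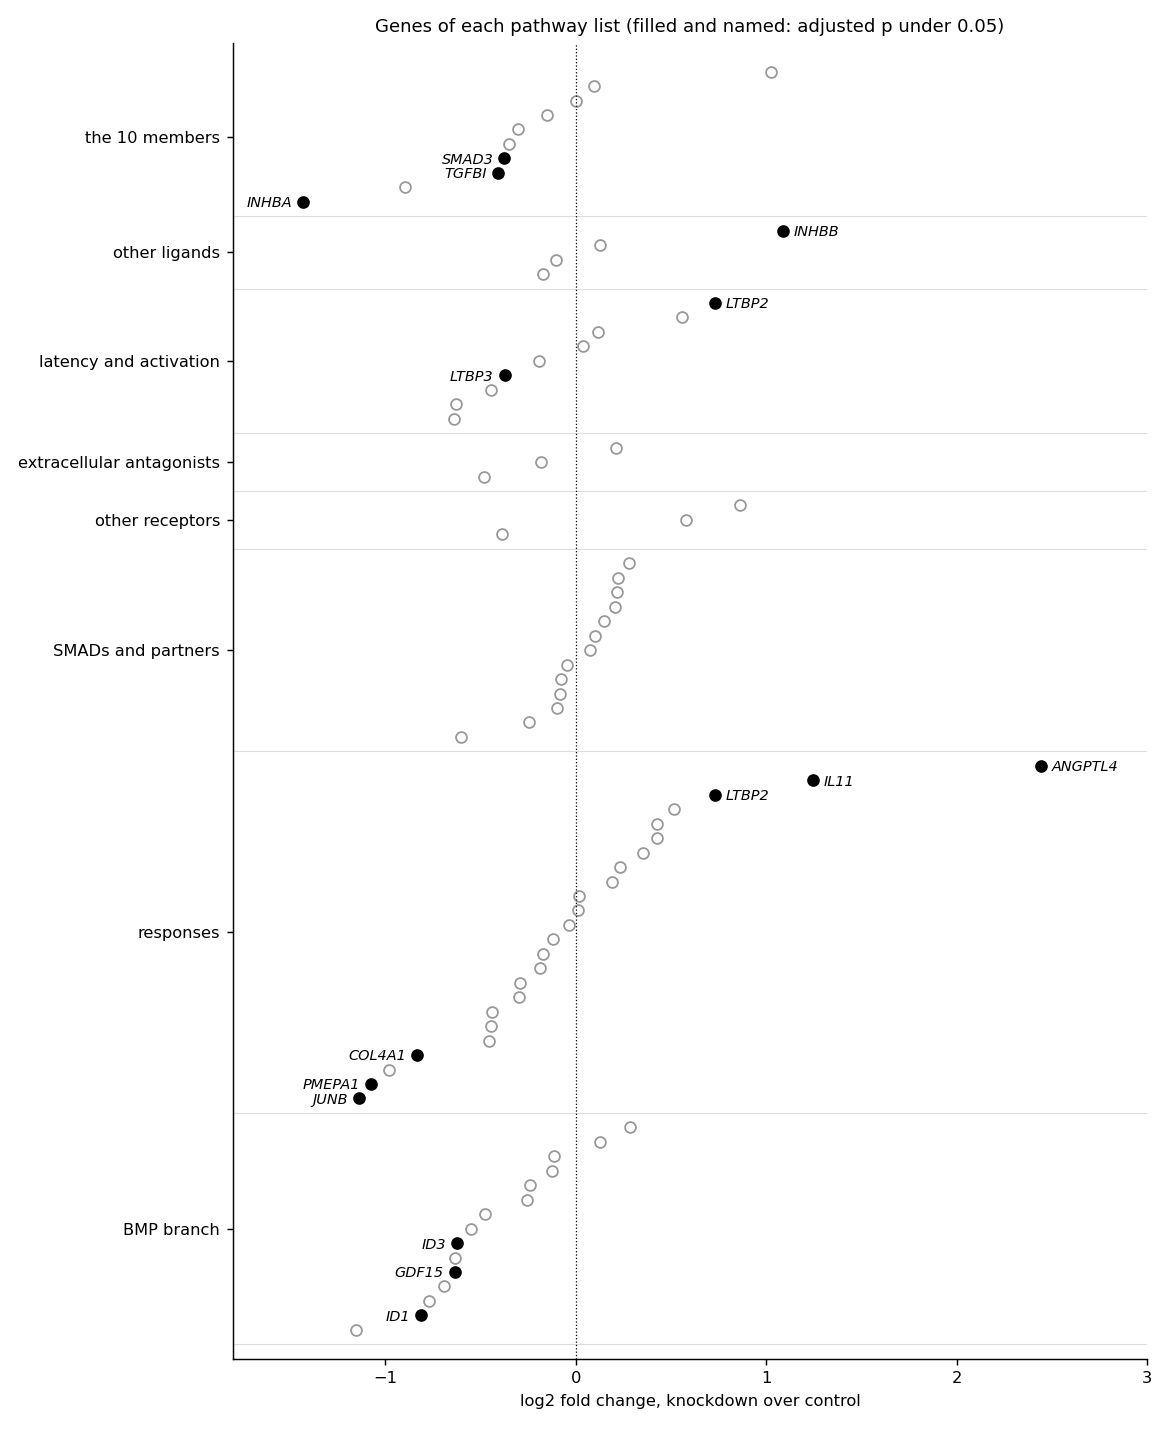
Log2 fold change, knockdown over control, of genes reported from the pathway lists, those that were tested, 1 block per list; filled, named points have an adjusted p under 0.05, LTBP2 stands in 2 blocks and points within a block are ordered by value. Responses spread from -1.14 (JUNB) to 2.44 (ANGPTL4), and the 3 named BMP branch genes lie below 0.

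**Figure D5:**
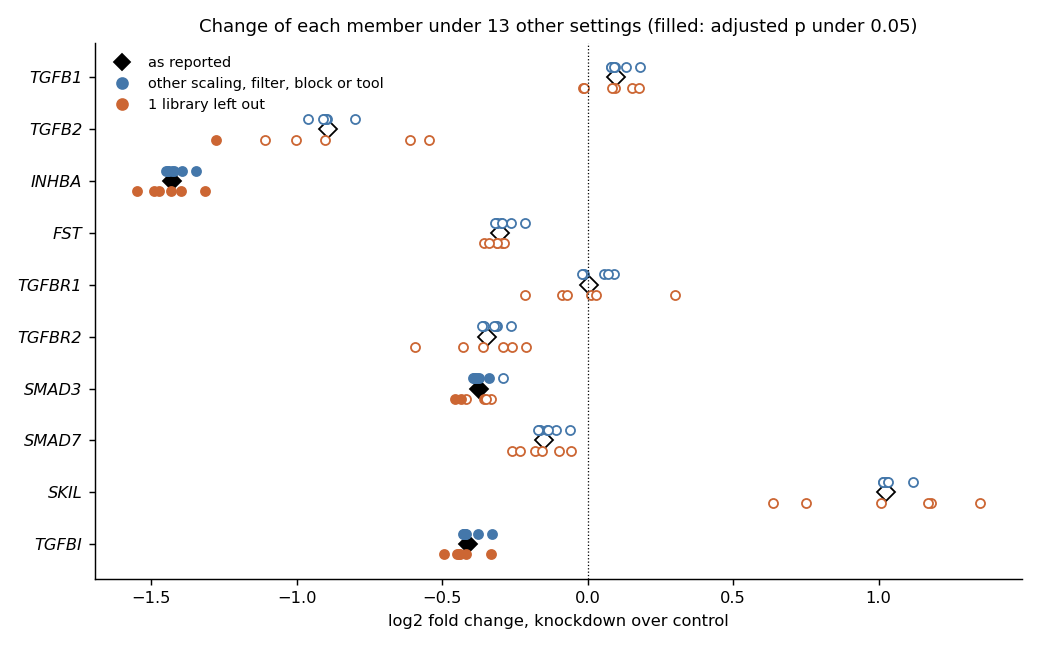
Log2 fold change of each member as reported (diamonds), under 7 other scalings, filters, tools or a replicate block (blue) and with 1 library left out (orange); filled symbols have an adjusted p under 0.05. INHBA and TGFBI stay filled throughout, SMAD3 is open in 4 settings, and SKIL, TGFB2 and TGFBR1 spread most.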

How the data were processed

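The authors deposited unnormalized read counts of 62700 genes in 6 libraries of poly(A) RNA, with a gene length in bases; per the labels, libraries were strand-marked. Per the submitters' processing notes, cutadapt 2.8, HISAT2 2.1.0, SAMtools 1.10, featureCounts 2.0.0 and build hg38 were used, without order or settings. No source used here gives the annotation release, the strand setting or the handling of multi-mapping reads. Columns were matched to samples by library name, and 0 columns of sample values were left unused.

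Genes were kept with filterByExpr (minimum count 10, minimum total 15) which left 14649. The test was edgeR's (version 4.0.16, R 4.3.3) with TMM scaling, robust glmQLFit and glmQLFTest, no covariate, two-sided, Benjamini-Hochberg adjustment over all tested genes. Calls are those with an adjusted p below 0.05. TMM factors also scale the CPM values, and TPM uses the deposited lengths. SE is the log2 fold change over the root of the quasi-F statistic. Alternatives were RLE scaling, no scaling, no count filter, 5 CPM in 3 libraries, a replicate block, leaving out each library, DESeq2 1.42.0 and limma-voom (limma 3.58.1). In each of 10 simulations over 14649 genes, 200 genes were changed by a known fold, fewer than the 1893 called in the data. The fit called, with the correct sign, 25.7% of the genes given a 1.5-fold change, 52.6% at 2-fold and 87.1% at 4-fold. Unchanged genes made up 6.36% of its calls. With a different number of changed genes, these shares may not carry over to the data.

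The members and lists were chosen with earlier results of these data known. All 10 members are described. From each other pathway list, counts and up to 3 called genes per direction with the largest change are named, and others named were chosen after their values were seen. A few listed genes are counted but not reported here by name. Promoter windows are the 250 bases before each RefSeq start (GRCh38.p14), and gene coordinates come from GENCODE release 29, on the same assembly (GRCh38, or hg38).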

Additional observations from a re-analysis of the deposited data

How the results depend on the processing

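Under 13 alternatives, INHBA and TGFBI kept their call and direction, and SMAD3 lost its call in 4. The replicate numbers do not show paired libraries: same-numbered libraries had correlations of deviations of 0.18, 0.086 and -0.073, and not each library was closest to its own number. With the replicate block 1158 genes were higher and 1273 lower, more than the 918 and 975 without it. The members called were the same in number, 3 lower and 0 higher. Leaving out 1 library gave 529 to 828 higher and 702 to 1141 lower genes, and 2 to 4 members lower. The stricter filter tested 8163 genes, without SKIL, TGFB2 and TGFBR1. The sign of TGFBR1, near 0, turned with RLE scaling (-0.016), no count filter (-0.012) and DESeq2 (-0.021), and without control 2 (-0.22), control 3 (-0.089) or knockdown 2 (-0.069), where leaving out 1 library gave values up to 0.30; that of TGFB1 turned without control 2 (-0.017) or knockdown 1 (-0.014). The cause was not tested. Over 22 named genes, 281 values were computed and 257 kept call and direction. Depth limits TGFBR1 and SKIL, with at most 72 reads in a library.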

Other observations

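Some further pathway genes did not pass the test and are given by their values. FSTL1, a follistatin-like secreted protein, had control and knockdown means of 17.9 and 12.8 CPM (log2 fold change -0.48, adjusted p = 0.0715), and the activin receptor gene ACVR1B had 44.4 and 34.0 CPM (-0.39, adjusted p = 0.0843). THBS1, which can release latent TGF-beta, was at 571 and 840.2 CPM (0.56, adjusted p = 0.0983) with overlapping groups. ID2 had 4.13 and 1.87 CPM (-1.15, adjusted p = 0.0532). The antisense gene TGFB2-AS1 was higher in each knockdown (2.09, 3.33 and 3.03 CPM) than in each control (1.58, 1.81 and 1.497 CPM) but not called (0.79, adjusted p = 0.156).

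The genes whose log2 CPM followed INHBA most closely over the 6 libraries were MEGF6 (Pearson r = 0.999), SULF2 (0.997) and ABCC1 (0.996), with log2 fold changes of -0.70, -1.15 and -0.57. The points share libraries and a group difference, and the genes were picked from all tested genes, so the values are a description.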
